A study of Canis lupus familiaris with 7 samples.

Results

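Integrins are the receptors with which cells hold on to the matrix around them and, in leukocytes, to other cells, and laminins are trimeric proteins of basement membranes that several integrins bind. Expression of both families was measured in 7 primary osteosarcomas of dogs, a bone tumour. The members were all array probes whose gene symbol names an integrin alpha subunit, a numbered integrin beta subunit or a laminin alpha, beta or gamma chain, with proteins that only bind a beta subunit left out. The rule gave 50 probes of 29 genes, among 43603 probes and 11160 gene symbols on the array. Of these, 7 probes of 4 genes were leukocyte integrins (ITGAL, ITGAM, ITGB2 and ITGB7) and were described apart from the matrix receptors. ITGA3, ITGA10, ITGAX, ITGB4, LAMA1, LAMA2, LAMA5 and LAMC3 had no probe under their symbol and were not analysed here.

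The deleted group held 4 tumours labelled DLG2 deleted, and the wild-type group held 3 tumours labelled DLG2 wild type. DLG2 codes for a membrane scaffold protein. Deleted tumour 1 came from a Mixed Breed (German Shepherd/Collie/X) of 8 years with the sex label MC, deleted tumour 2 from a Rottweiler X (Canine Mixed Breed) of 9 years labelled FS, deleted tumour 3 from a Greyhound of 6 years labelled MC and deleted tumour 4 from a Great Pyrenees of 7 years labelled FS. Wild-type tumour 1 came from a Boxer of 12 years labelled FS, wild-type tumour 2 from a Mixed Breed (Labrador Retriever/X) of 10 years labelled FS and wild-type tumour 3 from a Bull Mastiff of 8 years labelled MC. Each tumour was 1 piece of tissue on 1 array, so breed, age and tumour differ together, and fewer cells of a type cannot be told apart from less RNA per cell. The deleted group was 6 to 9 years old and the wild-type group 8 to 12, so age and group are partly confounded in the fits with age. Wild-type tumours 1 and 2 resembled each other more (r = 0.987 over kept probes, which are not independent) than the other pairs did (0.935 to 0.966), and some results below are given also with these 2 averaged. The arrays had 30280 to 34538 probes well above background each. The probe under the DLG2 symbol, which may lie outside the deleted stretch and so does not check the labels, had log2 intensities of 10.38 to 11.44 in deleted and 10.91 to 12.03 in wild-type tumours (log2 difference -0.77, limma adjusted p = 0.711). Of the osteoblast markers, 6 of 10 had a kept probe, among them RUNX2, ALPL and BGLAP, while the other 4 were not analysed here.

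Each integrin is 1 alpha and 1 beta subunit that leave the cell's interior as a pair, and the pair decides what is bound. ITGB1 pairs with most alpha subunits, ITGAV joins several beta subunits and binds matrix proteins that carry the short arginine-glycine-aspartate (RGD) motif, and ITGB2 pairs only with the leukocyte alpha subunits. A laminin is 1 alpha, 1 beta and 1 gamma chain, and in bone tissue the chains are best known from the walls of vessels.

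Some of the integrin probes hold letters that can code for conserved stretches of the subunits, and these are shown first. Next to the membrane, alpha subunits carry a conserved glycine-phenylalanine-phenylalanine stretch that holds the pair inactive, and GGNTTCTTN, where N is any base, is 1 way in which codons can write it (a last codon of TTA or TTG would give leucine). These letters, in capitals below, were in 4 of the 50 member probes, all of alpha subunits, and in 0.594% of all 43603 probes read as printed, or 1.41% with both strands counted.

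ITGA1: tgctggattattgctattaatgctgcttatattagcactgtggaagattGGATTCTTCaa

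ITGA11: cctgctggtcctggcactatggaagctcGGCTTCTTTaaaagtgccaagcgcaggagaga

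ITGA2B: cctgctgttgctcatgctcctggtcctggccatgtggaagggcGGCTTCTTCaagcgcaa

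ITGA8: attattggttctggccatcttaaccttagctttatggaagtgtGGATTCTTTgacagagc

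The ITGA1 probe was placed by the files at chr4:65501919-65501964 on the minus strand, ITGA11 at chr30:35316573-35317278 on the minus strand, ITGA2B at chr9:22380866-22381795 on the plus strand and ITGA8 at chr2:24074115-24076102 on the plus strand of the canFam2 build. The last 3 intervals are longer than the 60 bases of a probe. Beta subunits carry asparagine-proline-x-tyrosine or asparagine-proline-x-phenylalanine stretches to which talin and kindlin, the proteins that switch integrins on, bind. The codons AAC, CCN, NNN and TTN in a row are 1 way to write the phenylalanine form. A last codon of TTA or TTG would give leucine, and the tyrosine form was not searched. This pattern was in 1 member probe, that of ITGB2, where it stands at 2 places. It was in 0.404% of all probes as printed (0.814% with both strands). No member probe held both motifs. Such a match is a description of the letters only. The files give the ITGB2 probe no position.

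ITGB2: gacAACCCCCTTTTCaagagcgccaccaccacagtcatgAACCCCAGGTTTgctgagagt

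The exon or untranslated region that a probe falls in was not analysed here.

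Probes had to be well above background on 3 or more arrays to be kept. This left 44 probes of 26 genes, and 22 of these genes were well above background in all 7 tumours. ITGAD, a leukocyte subunit, and LAMB4 were not well above background in any tumour. ITGB6, an epithelial subunit that pairs with ITGAV, passed background only in wild-type tumour 3 and so was not tested either. Of the 26 genes with a kept probe, 0 passed the test between deleted and wild-type tumours (limma, Benjamini-Hochberg adjusted p from 0.688 to 0.998), as did 0% of all 32309 kept probes. At an unadjusted limma p under 0.05 there were also 0 member genes, beside 7.54% of all 9574 genes, and 0 of the 44 member probes, beside 7.29% of all kept probes. In 0 of the 26 genes did the deleted tumours lie entirely above or below the wild-type tumours, which 7.71% of all genes did. The difference, deleted minus wild type on the log2 scale, was above 0 in 14 genes and below 0 in 12, with a median of 0.004, beside 0.015 over all genes. The 95% interval of the difference lay within 1 either way in 14 of the 26 genes, so for the other 12 a change of 2-fold was not excluded by these arrays.

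**Figure D1:**
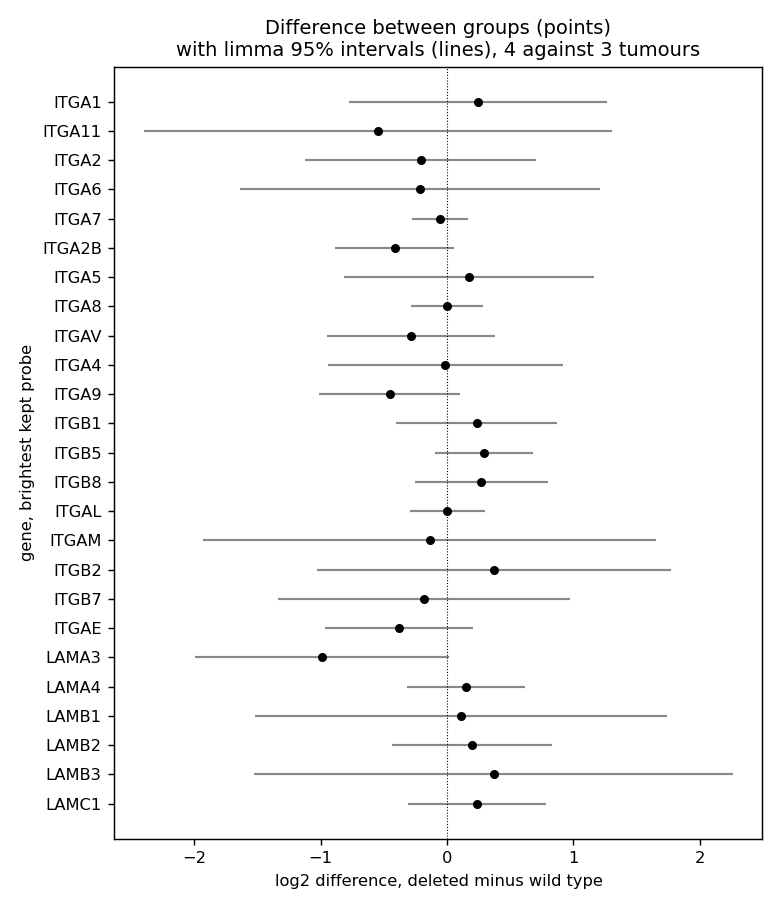
Differences in log2 intensity between deleted and wild-type tumours (x axis) for 25 of the 26 genes with a kept probe (y axis, brightest kept probe, in the order of their classes), with the limma estimate as a point and its 95% interval as a line, 4 against 3 tumours. The estimates run from -0.99 for LAMA3 to 0.37 for ITGB2 and LAMB3, and the line of every gene shown reaches 0.

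Tumours of the same group differed widely. The standard deviation (SD) over the 7 tumours had a median of 0.399 over the member genes and ran from 0.0857 for ITGA7, a muscle laminin receptor, to 1.12 for LAMB3, while over all genes its median was 0.289. Deleted tumour 3 was highest in 10 of the 26 genes and above the gene's own mean in 21. Deleted tumour 4 was lowest in 8 genes and above the mean in 5. Both are in the deleted group, and so they pull its mean in opposite directions. In deleted tumour 3 the endothelial markers, 5 of 8 with a kept probe, lay at a median of 0.89 (log2) above their mean over tumours, against -0.47 to 0.33 in the others. The medians of the myeloid (1.19), leukocyte (0.43), mural (0.37) and skeletal muscle (0.31) markers were also highest in deleted tumour 3. Each of these lists, the endothelial one included, held markers that peaked elsewhere. These were LCK and MS4A1 in deleted tumour 1, PDGFRB and MYH1 in deleted tumour 2, and CLDN5 and MYH11 in deleted tumour 4. In wild-type tumours they were DES and ACTN2 (tumour 1), LYZ (tumour 2), and TTN, CSF1R and CD68 (tumour 3). In deleted tumour 4 the adipocyte markers, 5 of 5 with a kept probe, lay at 3.12, against -0.61 to -0.28 in the others. LEP, 1 of these 5, was instead lowest in deleted tumour 4, at 7.96. The part of any of these cell types in the integrin and laminin values was not tested.

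**Figure D2:**
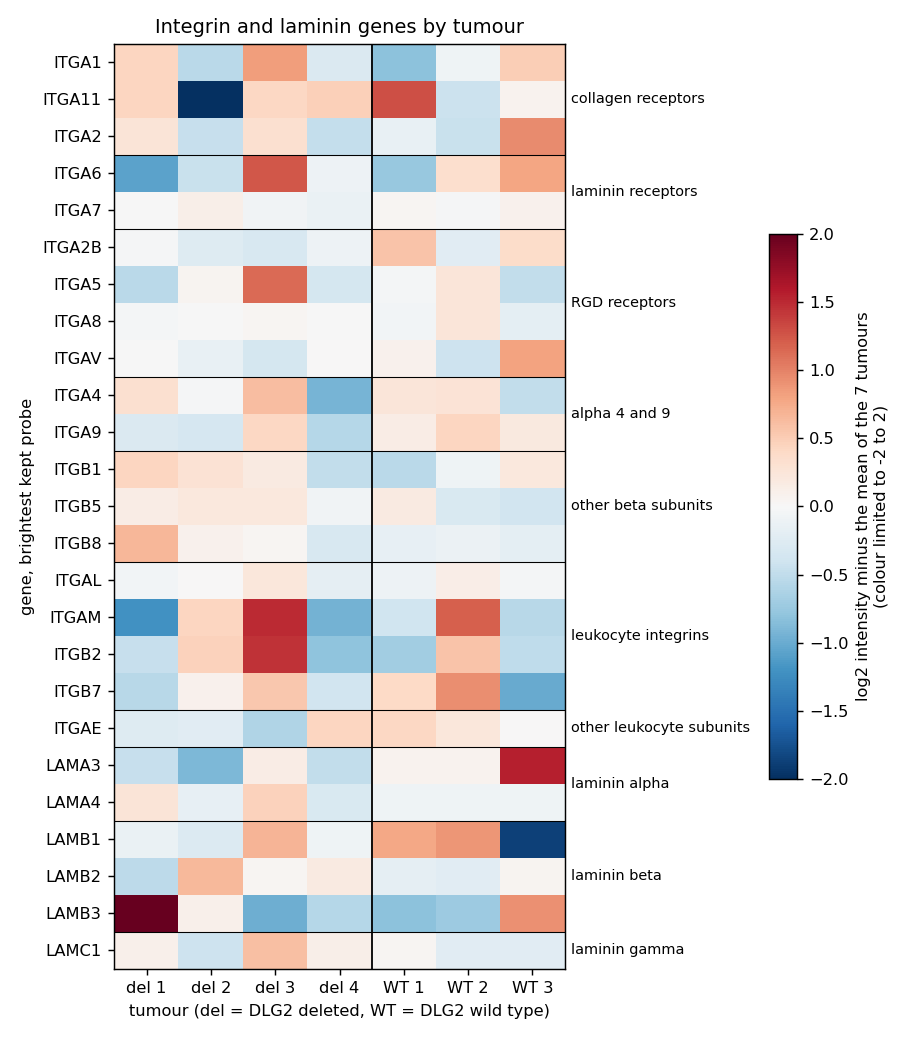
Deviation of log2 intensity from the mean of the 7 tumours (colour, limited to -2 to 2) for 25 of the 26 genes with a kept probe (rows, grouped by what the subunits bind or by chain) in each tumour (columns, del for deleted and WT for wild type). Deleted tumour 3 is highest in 9 rows and deleted tumour 4 lowest in 8, and no row separates the 4 deleted from the 3 wild-type columns.

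Collagen is bound by ITGA1, ITGA2 and ITGA11, each paired with ITGB1. ITGA11, the receptor of fibroblasts and bone-forming mesenchymal cells for fibrillar collagen, had log2 intensities of 10.96, 8.27, 10.93 and 11.01 in the deleted group and 11.82, 10.09 and 10.60 in the wild-type group, here and below in the order of the tumour numbers. Deleted tumour 2 stood far below the rest and the groups overlapped. The difference was -0.55 (standard error, SE, 0.78, limma adjusted p = 0.931), and without deleted tumour 2 it was 0.13. The osteoblast markers were also lowest in deleted tumour 2, at -1.18 from their mean, against -0.60 to 0.72 in the other tumours, and their part in the ITGA11 value was not tested. ITGA1 lay at 10.56, 9.59, 10.97 and 9.84 in deleted and 9.31, 10.04 and 10.62 in wild-type tumours. Deleted tumour 3 was highest and wild-type tumour 1 lowest, with a difference of 0.25 (SE 0.43, adjusted p = 0.945). ITGA2, whose place in the text was chosen after its values were seen, lay between 6.76 and 7.56 in 6 tumours and at 8.18 in wild-type tumour 3.

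ITGA6 and ITGA7 are laminin receptors. ITGA6 is found on endothelium and epithelium, and its log2 intensity was 9.61, 10.24, 11.93 and 10.58 in deleted tumours and 9.92, 11.02 and 11.47 in wild-type tumours. Deleted tumour 3 and wild-type tumour 3 were the highest and the groups overlapped over nearly their whole range. The difference was -0.21 (SE 0.60, limma adjusted p = 0.970), and -1.39 with age in the fit, which did not pass the test. Its 3 kept probes, 2 of which overlap (chr36:19874780-19874839 and chr36:19874772-19874831) and so are not independent, all placed the same tumour highest and all gave a difference below 0, from -0.30 to -0.18. ITGA7 ran from 6.70 to 6.94 and varied least of the 26 genes.

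The RGD receptors were ITGA2B, ITGA5, ITGA8 and ITGAV, with differences from -0.41 to 0.18. ITGAV, which with its beta partners binds vitronectin and other bone matrix proteins, had log2 intensities of 12.87, 12.74, 12.54 and 12.90 in deleted and 12.98, 12.46 and 13.69 in wild-type tumours. Wild-type tumour 3 was the highest and the groups overlapped (difference -0.28, SE 0.28, limma adjusted p = 0.902), and without that tumour the difference was 0.04. The second ITGAV probe, also highest in wild-type tumour 3, gave 0.18, so the direction was not settled between the probes. In wild-type tumour 3 the osteoclast markers, 5 of 7 with a kept probe, lay at 2.77 above their mean over tumours, against -1.44 to 0.77 in the others. CALCR, 1 of these 5, was instead highest in deleted tumour 1 (7.23, against 7.16 in wild-type tumour 3). Osteoclasts are rich in ITGAV, and their part in its value here was not tested.

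The same tumour was apart for a partner of ITGAV. ITGB6 had values of 6.34, 6.40, 6.28 and 6.36 in deleted and 6.40, 6.46 and 7.42 in wild-type tumours, and only the last of these was well above background. It was singled out after its values were seen, it has no fold because all other arrays give only a bound, and its probe is shown because ITGB6 is the gene that was detected in 1 tumour alone (chr36:8846611-8846670, minus strand, canFam2).

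ITGB6: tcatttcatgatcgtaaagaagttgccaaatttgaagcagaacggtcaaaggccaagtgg

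ITGA4 and ITGA9 bind fibronectin, VCAM1 and tenascin among others. Both were lowest in deleted tumour 4, with differences of -0.01 for ITGA4 and -0.45 for ITGA9. The limma adjusted p of ITGA9 was 0.760, and its exact permutation p over the 35 splits of the tumours was 0.114 (two-sided), where 0.0571 is the smallest that 4 against 3 tumours can give. The same exact p, 0.114, was found for ITGA2B and LAMA3 and was the lowest among the 26 genes, and adjusted over them it was 0.990.

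The beta subunits of matrix integrins with a kept probe were ITGB1, ITGB5 and ITGB8, and each had a difference above 0. ITGB1, the common partner, lay at 14.34, 14.21, 14.10 and 13.43 in deleted and 13.39, 13.84 and 14.13 in wild-type tumours. The range was under 1 on the log2 scale and the groups overlapped, with a difference of 0.23 (SE 0.27, limma adjusted p = 0.913). ITGB5, which forms a vitronectin receptor with ITGAV, lay at 14.52, 14.58, 14.58 and 14.31 in deleted and 14.56, 14.07 and 13.98 in wild-type tumours. Here 2 of the 3 wild-type tumours were below all deleted tumours and wild-type tumour 1 lay within the deleted range. The difference was 0.30 (SE 0.16, adjusted p = 0.773), and its 4 probes, 2 of which overlap, gave 0.13 to 0.38. ITGB8, which activates latent TGF-beta with ITGAV, differed by 0.27 (adjusted p = 0.875). Over the 14 matrix integrins 6 genes were above 0 and 8 below, with a median difference of -0.03.

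Of the leukocyte integrins, ITGB2, ITGAM and ITGB7 were among the 8 members of widest spread, and in each the groups overlapped. ITGB2 is the beta subunit that leukocytes use to stop on the vessel wall, and its log2 intensity was 8.79, 9.72, 10.71 and 8.45 in deleted tumours and 8.56, 9.82 and 8.74 in wild-type tumours. Deleted tumours 2 and 3 and wild-type tumour 2 were high, and the other 4 lay below 8.8. The 3 high tumours were those that shared 1 slide, and each of the other 4 was alone on its slide, so for these values slide and tumour cannot be told apart. The difference was 0.37 (SE 0.59, limma adjusted p = 0.938).

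ITGAM, which with ITGB2 forms the complement receptor of macrophages and neutrophils, lay at 6.89, 8.54, 9.59 and 7.17 in deleted and 7.71, 9.30 and 7.55 in wild-type tumours. The same 3 tumours were the highest, and the difference was -0.14 (SE 0.76, adjusted p = 0.985). Its other 2 kept probes were well above background in exactly these 3 tumours, with values of 6.76 to 7.01, and lay between 6.32 and 6.50 in the other 4, so their small differences of 0.02 and 0.04 are between values of which most are bounds. ITGAL, which with ITGB2 makes the lymphocyte receptor for ICAM1, lay at 6.52, 6.58, 6.81 and 6.40 in deleted and 6.47, 6.71 and 6.54 in wild-type tumours, and was well above background in 4 of the 7. Its range of 0.41 on the log2 scale was narrow and near background, and the difference was 0.005 (SE 0.13, adjusted p = 0.996). Its probe (chr6:20616533-20616592, minus strand, canFam2) is shown because the closest relation between subunits, below, rests on it.

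ITGAL: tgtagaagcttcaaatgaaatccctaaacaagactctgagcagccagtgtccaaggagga

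ITGB7, the partner of ITGA4 on lymphocytes that home to the gut, followed a partly other order, at 7.64, 8.27, 8.72 and 7.81 in deleted and 8.58, 9.11 and 7.17 in wild-type tumours. Wild-type tumour 2 was highest and wild-type tumour 3 lowest, with a difference of -0.18 (SE 0.49, limma adjusted p = 0.968). ITGAE, its other partner, was lowest in deleted tumour 3, where ITGB2 was highest, and differed by -0.38 (adjusted p = 0.825).

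Myeloid markers, 7 of 8 with a kept probe and CD14 without, were as a median highest in the tumours high in ITGB2 and ITGAM. Their median deviation from the mean over tumours was 1.19 in deleted tumour 3, 0.99 in wild-type tumour 2 and 0.12 in deleted tumour 2, the 3 tumours high in ITGB2, and -1.02 to -0.21 in the other 4. AIF1, a macrophage marker, was at 12.61 and 12.16 in deleted tumour 3 and wild-type tumour 2, while TYROBP was at 13.82 and 13.22. Not all markers kept this order, since CSF1R (8.82) and CD68 (12.41) were highest in wild-type tumour 3, where ITGB2 was low, and TYROBP was higher there (12.85) than in deleted tumour 2 (12.41). The general leukocyte markers, 5 of 10 with a kept probe, ran from -0.09 to 0.43 in deleted and from -0.38 to -0.16 in wild-type tumours. Of these 5 genes, 3 (CD3E, LCK and MS4A1) had an unadjusted limma p under 0.05 and separate groups, all higher in deleted tumours, beside 7.54% and 7.71% of all genes, and 0 were called. MS4A1 was dim, at 6.28 to 6.75. The other 2, PTPRC (-0.14) and CD79B (0.08), had overlapping groups. ITGAL and ITGB7, which leukocytes carry, were not separate either. The part of leukocyte content in the ITGB2 and ITGAM values was not tested.

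**Figure D3:**
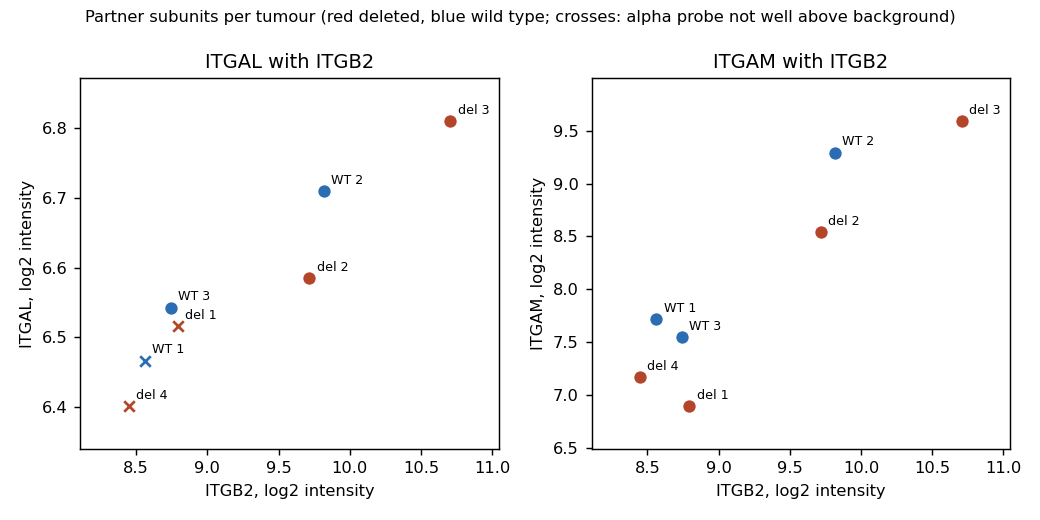
Log2 intensity of ITGAL (left, y axis) and ITGAM (right, y axis) against that of ITGB2 (x axes), 1 mark per tumour, red for deleted and blue for wild type, with a cross where the alpha probe was not well above background. Deleted tumours 2 and 3 and wild-type tumour 2 lie upper right in both panels, and ITGAL is not well above background in 3 of the other 4 tumours.

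Subunits that assemble into 1 protein were then compared over the tumours. Of 34 known pairs, 23 had both members with a kept probe. Pearson's r was above 0 in 16 pairs and below 0 in 7, with a median of 0.0756. After adjustment over the 23 pairs 1 pair had a p under 0.05, ITGAL with ITGB2, at r = 0.954 (exact permutation over 5040 orders, two-sided, p = 0.000397, adjusted p = 0.00913) and Spearman's rho = 0.964 (exact p = 0.00278, adjusted p = 0.0639). Without deleted tumour 3 and wild-type tumour 2, the tumours farthest from the median of ITGAL, r was 0.824 (exact p = 0.0750), over 5 tumours and with the most extreme ones removed. In 3 of the 7 tumours ITGAL was not well above background, so their values are bounds without an order among them, and both coefficients rest on these in part. With wild-type tumours 1 and 2 averaged, r was 0.948 and the adjusted exact p was 0.112. ITGAM with ITGB2 came next at r = 0.924 (adjusted exact p = 0.0570), with a rho of 0.750 (adjusted exact p = 0.675), and without the same 2 tumours r was 0.792. ITGB2 fell into a set of 3 high and 4 low tumours, which is also the split by slide, and neither set holds enough tumours for a correlation of its own. The permutation takes no account of the slide. Extraction sessions here are runs of the image software before noon or later, by its recorded time, and not RNA extractions. They held 4 and 3 tumours, too few for correlations within them.

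Matrix receptors showed no pair of that kind. The highest was ITGA1 with ITGB1, at r = 0.633 and rho = 0.429 (adjusted exact p = 0.762 and 0.818), and r was 0.433 without the 2 farthest tumours. The lowest r values were -0.493 for ITGA11 with ITGB1, -0.441 for ITGAV with ITGB5 and -0.424 for LAMA4 with LAMB2 (adjusted exact p = 0.762 for each). With wild-type tumours 1 and 2 averaged, r of ITGAV with ITGB5 was -0.877 (adjusted exact p = 0.245). For ITGA11 with ITGB1 r was 0.0420 without deleted tumour 2 and wild-type tumour 1.

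**Figure D4:**
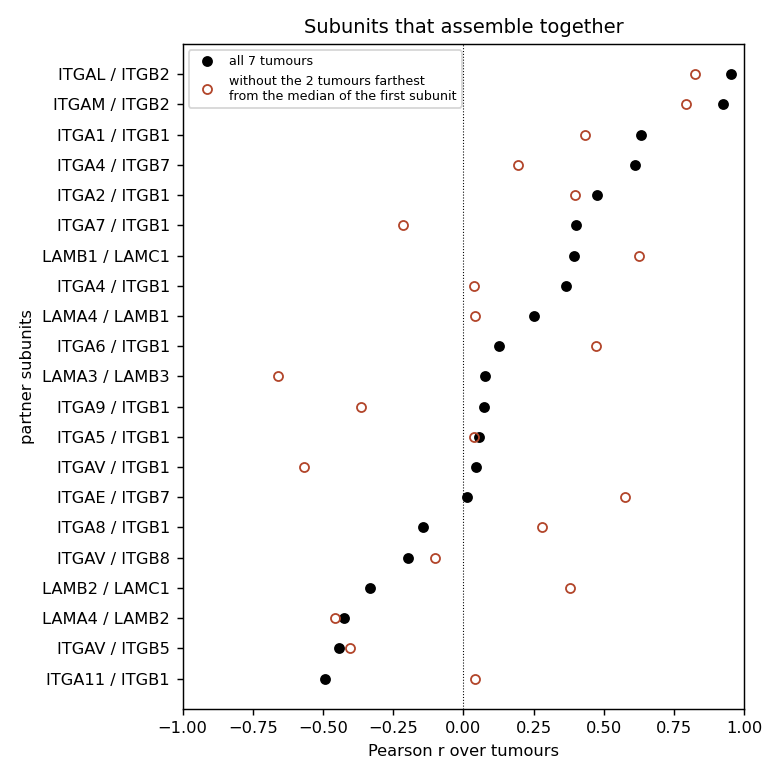
Pearson's r over tumours (x axis) for 21 of the 23 partner pairs (y axis), with all 7 tumours as filled points and without the 2 tumours farthest from the median of the first subunit as open points. ITGAL and ITGAM with ITGB2 lie at 0.954 and 0.924, and below them many open points lie far from their filled points.

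Of the laminin alpha chains, LAMA3 and LAMA4 had kept probes. LAMA3, the chain of epithelial laminin, had log2 intensities of 7.87, 7.43, 8.48 and 7.84 in deleted and 8.40, 8.40 and 9.88 in wild-type tumours. Wild-type tumour 3 was the highest and deleted tumours 1, 2 and 4 were below the wild-type group, with deleted tumour 3 above 2 of its tumours. The difference of -0.99 (SE 0.42) was the widest among the member genes and did not pass the test (limma adjusted p = 0.688). It was -0.49 without wild-type tumour 3, and was -0.48 within extraction session 1 (3 deleted, 1 wild-type tumour), -1.27 within session 2 (1 deleted, 2 wild-type tumours) and -0.44 on the 1 slide with both groups. It was wider on the processed intensity (-1.34 and -1.38) and with age in the fit (-1.86), where age and group are partly confounded. The difference did not pass the test in these fits either. The probe (chr7:67443065-67443124, minus strand, canFam2) is shown as that of the widest difference.

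LAMA3: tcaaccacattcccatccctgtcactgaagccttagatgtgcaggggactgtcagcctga

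LAMA4, the alpha chain of vessel walls and mesenchyme, lay at 14.09, 13.66, 14.29 and 13.53 in deleted tumours and at 13.74 in each of the 3 wild-type tumours. Deleted tumours lay on both sides of this value, and the difference was 0.15 (SE 0.20, limma adjusted p = 0.921). Its 3 probes gave differences of 0.10 to 0.42. The highest of these (probe A_11_P175683, singled out after its values were seen) was 11.84, 11.80, 12.51 and 12.05 in deleted and 11.51, 11.69 and 11.68 in wild-type tumours, with an SE of 0.19 and an adjusted p of 0.701. It was the 1 member probe of 44 whose groups did not overlap, beside 8.17% of all kept probes. This probe lies at chr12:71578195-71578254 and the other 2, which overlap, at chr12:71573463-71573522 and chr12:71573457-71573513, all on the minus strand of canFam2. All 3 placed deleted tumour 3 highest.

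LAMA4 (A_11_P175683): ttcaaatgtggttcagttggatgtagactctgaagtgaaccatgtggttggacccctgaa

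LAMB1, the beta chain of most embryonic and vascular laminins, lay at 12.25, 12.10, 13.07 and 12.29 in deleted and 13.16, 13.27 and 10.52 in wild-type tumours. Wild-type tumours 1 and 2 were above all deleted tumours and wild-type tumour 3 was below all of them. The difference was 0.11 (SE 0.69, limma adjusted p = 0.987). Without wild-type tumour 3 it was -0.79 (limma adjusted p = 0.574), and without deleted tumour 3 it was -0.10. With wild-type tumours 1 and 2 averaged it was 0.56. Of its other probes, A_11_P186588 gave -0.12 and A_11_P195173 gave -0.02 with all tumours, so its direction was not settled. All 3 LAMB1 probes were lowest in wild-type tumour 3, at 10.52, 7.01 and 7.11, and they lie apart on the same strand (chr18:15686008-15686067, chr18:15638542-15638734 and chr18:15660027-15660086, plus strand, canFam2). Within session 1 the difference was -0.78, and within session 2, which held wild-type tumour 3, it was 0.41.

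LAMB2, the beta chain of nerve-muscle contacts and vessel walls, lay at 10.99, 12.17, 11.56 and 11.70 in deleted and 11.34, 11.29 and 11.57 in wild-type tumours. Deleted tumours held both the highest and the lowest value (difference 0.20, SE 0.27, limma adjusted p = 0.925). LAMB3, the beta chain that joins LAMA3 in epithelial laminin, had the widest spread of all members, at 9.86, 7.89, 6.82 and 7.23 in deleted and 6.97, 7.06 and 8.71 in wild-type tumours. Deleted tumour 1 and wild-type tumour 3 were high, and deleted tumour 3 was lowest. The difference was 0.37 (SE 0.80, adjusted p = 0.959), and without deleted tumour 1 it was -0.27.

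This spread was seen at 1 LAMB3 probe only. The second kept probe ran from 6.48 to 6.66 and was well above background in 3 tumours, of which deleted tumour 1 was not one, and a further probe was well above background in wild-type tumour 3 alone. The first probe is shown with the stop triplet at its end in capitals, and lies at chr7:11229980-11230039, while the second lies at chr7:11239853-11240043, both on the minus strand of canFam2.

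LAMB3 (A_11_P052871): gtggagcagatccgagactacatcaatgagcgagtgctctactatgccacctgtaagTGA

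LAMB3 (A_11_P211498): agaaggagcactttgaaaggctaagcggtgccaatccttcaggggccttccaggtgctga

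LAMA3 with LAMB3 had r = 0.0756 over the 7 tumours. LAMC1, the common gamma chain, had a difference of 0.24 at its brightest probe (adjusted p = 0.902), and its 3 probes gave 0.07 to 0.24, each with deleted tumour 3 highest and deleted tumour 2 lowest. Of the 7 laminin genes 6 had a difference above 0 at their brightest probe, with a median of 0.15. Over all genes 47.1% had a difference below 0. LAMB1, LAMB2 and LAMB3 also had kept probes below 0, from -0.12 to -0.02. With the kept probes of each gene averaged, the laminin median was 0.07.

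**Figure D5:**
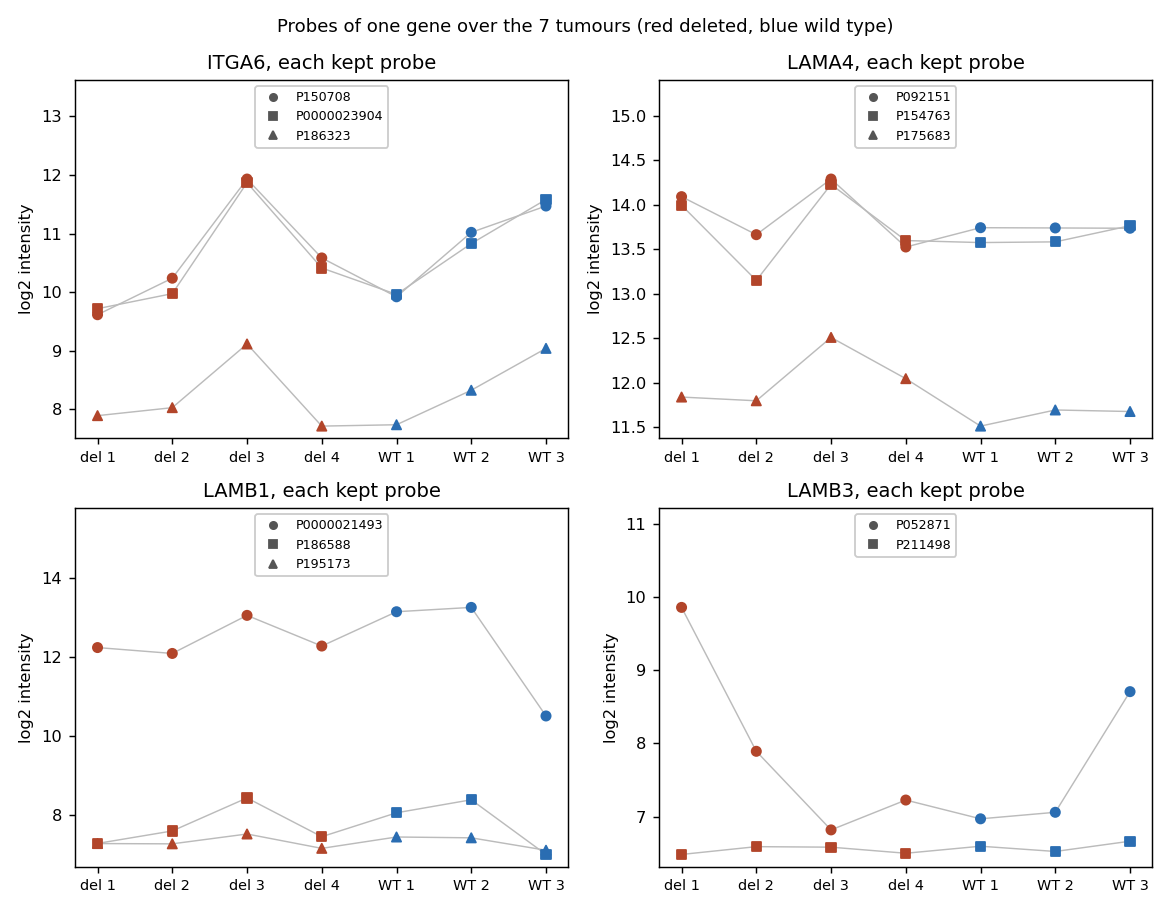
Log2 intensity (y axes) of each kept probe of ITGA6, LAMA4, LAMB1 and LAMB3 in the 7 tumours (x axes, red for deleted and blue for wild type, a symbol for each probe). The ITGA6 and LAMA4 probes all peak in deleted tumour 3 and the LAMB1 probes are all lowest in wild-type tumour 3, while the second LAMB3 probe stays between 6.48 and 6.66 where the first reaches 9.86.

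Over the 10 genes with more than 1 kept probe, 5 (ITGA6, ITGB1, ITGB5, LAMA4 and LAMC1) gave the same direction on all their probes. The 4 genes in which wild-type tumours 1 and 2 differed by more than 1 on the log2 scale were ITGA11 (1.73, tumour 1 minus tumour 2), ITGA6 (-1.10), ITGAM (-1.58) and ITGB2 (-1.26). These were 15.4% of the 26 genes, each at its brightest kept probe. Of all kept probes, with dim ones and several of a gene included, 1.56% differed by as much. The share over all genes was not computed.

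The proteins on either side of the receptors were described by lists. Of 20 adaptors and membrane partners that link integrins to the cytoskeleton, 14 had a kept probe and 0 were called, with 9 differences above 0, 5 below and a median of 0.13. At an unadjusted limma p under 0.05, which 7.54% of all genes had, stood 1 of the 14, CD151, a membrane partner of laminin receptors (difference 0.63, adjusted p = 0.668), and its groups overlapped. Of 17 matrix ligands and basement membrane partners, 12 had a kept probe and 0 were called, with 8 differences above 0, 4 below and a median of 0.11. Here MADCAM1, the vessel ligand of ITGA4 with ITGB7, differed by 0.57 (adjusted p = 0.670) with overlapping groups.

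TNC, the matrix protein tenascin-C that ITGA9 and ITGAV can bind, was 1 of the 12 with separate groups, where 7.71% of all genes had them. Its values are given because of this separation. It lay at 10.77, 10.06, 10.68 and 10.04 in deleted and 11.67, 11.53 and 11.93 in wild-type tumours. The highest deleted value was below the lowest wild-type value, with a difference of -1.33 (SE 0.23), and it did not pass the test over all probes (limma adjusted p = 0.381). COL4A1 and COL4A2, the chains of basement membrane collagen that lie beside laminin, differed by 0.60 and 0.62 (limma adjusted p = 0.903 and 0.899). Both had overlapping groups and were highest in deleted tumour 3, at 14.54 and 13.90. The other tumours of both groups lay at 11.89 to 12.96 for COL4A1 and 11.36 to 12.15 for COL4A2.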

How the data were processed

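Total RNA of each tumour was labelled with Cy3 by the authors and hybridised to a Canine V2 Agilent array. Per the file headers, the files deposited by the authors give linear mean and local background intensities of the spots, as written by Agilent Feature Extraction 10.7.3.1 (also named in the submitters' processing notes), and a processed intensity. The study's methods name multi-array average normalization and batch correction, with the batch not stated.

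From these deposited intensities, log2 values were computed here with limma 3.58.1 in R 4.3.3: normexp background correction (offset 50) over 45220 spots per array, removal of control spots and of 144 values with an outlier mark, quantile normalization, log2, and averaging of replicate spots. Probes well above background on at least 3 of the 7 arrays were kept (32309 of 43603), and no spot was saturated. Gene names and canFam2 coordinates were those of the files. A gene's value was its kept probe with the highest mean, and levels were not compared between probes. The groups were compared with limma (lmFit and eBayes, two-sided, no covariates), and a probe was called at p under 0.05 with a Benjamini-Hochberg adjusted p under 0.1. Exact permutation tests listed all splits or orders of the tumours in Python 3.11.15 with numpy 2.4.6, and scipy 1.17.1 gave the ranks for Spearman's rho. Partner pairs were tested by exact permutation of the tumours. Marker and pathway lists are given by their median deviation from the mean over tumours.

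The values in every tumour are given for genes with separate groups or a limma p under 0.05, the 8 genes of widest SD, the leukocyte integrins and the members of the 3 highest and 3 lowest partner pairs. Some members enter the counts without being described singly, and another beta subunit is not reported here. Members, lists and this rule were chosen with earlier results of these data known. The alternatives were different scalings and background corrections, different filters, the methods' t-test, trend and robust options, array weights, slide, extraction session, sex label or age in the fit, each tumour left out, and wild-type tumours 1 and 2 averaged. The computations were tested on simulated data. The number of arrays limits the precision.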

Additional observations from a re-analysis of the deposited data

Results flagged for a closer look

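In deleted tumour 2, ITGA11 had a log2 intensity of 8.27 while the other deleted tumours lay between 10.93 and 11.01, so the gap to the nearest tumour was 0.972 of the group's range, and 0.937 on the processed intensity. Of the 26 genes examined for a tumour far from its group of 4, this was the 1 found, where chance gives 1.3.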

How the results depend on the processing

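Member probes called stayed at 0 under all 21 alternatives. Of all 32309 kept probes, 46 were called without wild-type tumour 3 and 23 on normexp values scaled to the 75th percentile. On the processed intensity 10 (75th percentile) and 4 (quantile) were called. Trend and robust options called 4, array weights 3 and slide as a random block 1, and the other alternatives called none. Member probes at an unadjusted p under 0.05, 0 in the report, were 1 to 4 with 1 tumour left out, 1 on the processed intensity (either scaling), with all 7 arrays above background, with trend and robust options, with slide as a random block and with extraction session, 2 with slide as a fixed block or sex label, 3 with array weights or wild-type tumours 1 and 2 averaged, and 7 with age. The share of all kept probes at such a p was not computed under the alternatives, so these counts cannot be set against it. Partner pairs with an adjusted p under 0.05 were 0 with wild-type tumours 1 and 2 averaged and with 2 tumours left out. In the latter, 5 tumours allow too few orders for a single pair to pass, and r of ITGA11 with ITGB1 was 0.042.

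With the normexp values scaled to the 75th percentile, the median difference over all kept probes was 0.32, and probes did not move alike. Before this median was subtracted, ITGA1 was -0.025, ITGB1 -0.042, ITGB5 -0.0031, LAMB3 0.25 and ITGAL 0.87. The median over all member genes was then -0.014. With it subtracted, the medians were -0.33 over all member genes, -0.35 over matrix integrins and -0.42 over laminins. The genes whose sign then differed were ITGA1 at -0.34, ITGB1 -0.36, ITGB5 -0.32, LAMA4 -0.49, LAMB1 -0.52, LAMB2 -0.42, LAMB3 -0.063 and ITGAM 0.028. On the processed intensity the median was -0.26 for matrix integrins (quantile) and 0.29 for laminins (75th percentile, with the median of -0.06 over all kept probes subtracted). Other reversals were ITGA6 (0.22) and LAMB1 (-0.40) with array weights. With slide as a fixed block, which leaves 1 wild-type against 2 deleted tumours, ITGA6 was 0.064, ITGAL -0.013, ITGAV 0.17 and LAMB1 -0.68, and as a random block ITGAL was -0.0057 and LAMB1 -0.032. With extraction session ITGAL was -0.054, ITGB2 -0.037 and LAMB1 -0.22, with sex label ITGAL was -0.0089, and with age ITGA1 was -0.58, ITGAL -0.078 and ITGB7 0.22. With wild-type tumours 1 and 2 averaged ITGAM was 0.023 and ITGB7 0.10. With 1 tumour left out ITGA1 ran from -0.091 to 0.56, ITGA11 from -0.92 to 0.13, ITGA6 from -0.66 to 0.12, ITGAL from -0.072 to 0.073, ITGAM from -0.65 to 0.42, ITGAV from -0.57 to 0.041, ITGB2 from -0.055 to 0.76, ITGB7 from -0.74 to 0.23, LAMB1 from -0.79 to 0.59 and LAMB3 from -0.27 to 0.93. Of the 314 alternative values of the named genes 41 had the opposite sign, with the median subtracted under both 75th percentile scalings, none past the test. The cause was not tested.

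Limits were the 4 against 3 tumours and probes near background, such as ITGAL. No paired analysis was possible because each tumour came from another dog and the labels give the groups no shared numbers.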
